A study of Mus musculus with 12 samples.

Results

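CTCF was called at 44909 sites in all 3 libraries from fed mouse liver, and 2619 of these sites (5.83%) lay far from protein-coding genes. A site is the union of peaks, from any of 6 peak lists, that overlap by at least 1 bp, and the 6 lists gave 76061 sites in all. A fed site is one with a peak in each of the 3 fed lists. Far intergenic sites are the fed sites whose midpoint lay inside no RefSeq protein-coding gene and at least 100 kb from the nearest end of one (GRCm38.p6, the assembly behind mm10). Of the other 42290 fed sites, 24695 lay inside a protein-coding gene and 17595 between genes but closer than 100 kb. The choice used gene positions and fed calls and no score, and starved peaks entered through the extent of the merged sites alone.

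The study mapped CTCF by chromatin immunoprecipitation and sequencing (ChIP-seq), with an antibody from Diagenode, in snap-frozen whole livers of male wild-type (WT) C57BL6/Ncrl mice aged 3 to 4 months. Fed mice ate normal chow ad libitum and their livers were collected at ZT16 (hours since the lights came on, zeitgeber time), whereas the other mice, kept on the same chow, had been starved for 24 h and gave their livers at ZT13. There were 3 ChIP libraries of each kind, and the matching inputs, 3 per group, were not used here. Starvation and the time of collection therefore cannot be told apart, no label ties a library to a mouse of its own, and p-values then measure the spread between libraries, which may be technical. A whole liver mixes hepatocytes with other cells, so a change in cell makeup and a change within cells cannot be told apart either, and peak lists hold no expression with which to check the tissue.

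CTCF is a zinc finger protein that binds a long, directional DNA motif. Where cohesin, the ring that extrudes chromatin loops, meets bound CTCF it tends to stop, and pairs of CTCF sites then become loop anchors and the borders of topological domains. Gene deserts, long stretches with no protein-coding gene, often flank regulators of development and can hold their distant enhancers. Noncoding RNA genes can lie within such deserts.

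Sequence was at hand for the far intergenic sites that covered a RefSeq promoter window, the 250 bases before and 50 bases after the start of a gene. Of 32851 such windows, 50 overlapped a far intergenic site, from 47 genes that were all noncoding. The windows touched 46 of the 2619 sites, and 19 of them lay wholly inside the site. A core of the CTCF motif with 8 fixed bases, namely CCA, then any 2 bases, AG, any 2 bases and GGC, was searched on both strands. An exact match was present in 3 of these 50 windows (6.0%) and in 382 of 5784 windows over other fed sites (6.60%). It was present in 2.18% of 3031 windows over sites that were not fed sites, in 1.44% over no site and in 2.43% of all 32851. With at most 1 of the 8 bases mismatched, the shares were 20 of 50 (40.0%), 46.4%, 36.4%, 26.1% and 30.6%, in that order. By both counts, the share over far intergenic sites was above that over no site. With 1 mismatch allowed, it lay between the shares over sites that were not fed sites and over other fed sites. The exact share rests on 3 windows, and some of the looser matches lay in a part of the window outside the site. These are descriptions of the windows without a test. A match in the letters is not a shown binding site.

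The windows below, from RefSeq on GRCm38.p6, are printed from 5′ to 3′ along the strand of the gene, because they are the part of the far intergenic sites that can be read here. They were chosen after their values were seen. Capitals mark an exact match of the core for Gm26901, Gm40634 and Gm46796 and a match with at most 1 mismatch for Mir100hg, 1700007F19Rik and Lncpint, and Firre has none.
Gm26901, chr1:7398047-7398346, minus strand: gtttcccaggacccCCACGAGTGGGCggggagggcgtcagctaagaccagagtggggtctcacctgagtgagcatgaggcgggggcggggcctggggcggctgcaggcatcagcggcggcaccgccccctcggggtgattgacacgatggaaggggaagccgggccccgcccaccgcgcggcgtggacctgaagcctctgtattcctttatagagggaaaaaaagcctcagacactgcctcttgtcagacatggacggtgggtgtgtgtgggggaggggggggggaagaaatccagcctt
Gm40634, chr10:43743007-43743306, minus strand: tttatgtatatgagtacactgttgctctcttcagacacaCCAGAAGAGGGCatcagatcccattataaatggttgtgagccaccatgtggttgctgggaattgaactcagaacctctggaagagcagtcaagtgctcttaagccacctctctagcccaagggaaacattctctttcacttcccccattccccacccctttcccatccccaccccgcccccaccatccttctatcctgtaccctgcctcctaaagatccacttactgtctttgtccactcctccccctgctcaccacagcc
Gm46796, chr3:6106767-6107066, plus strand: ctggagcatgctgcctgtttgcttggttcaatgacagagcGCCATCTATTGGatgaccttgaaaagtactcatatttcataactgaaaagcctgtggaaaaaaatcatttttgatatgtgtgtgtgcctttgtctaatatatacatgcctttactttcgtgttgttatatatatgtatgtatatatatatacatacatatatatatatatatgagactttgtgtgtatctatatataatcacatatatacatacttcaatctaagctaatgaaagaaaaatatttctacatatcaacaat
Mir100hg, chr9:41474643-41474942, plus strand: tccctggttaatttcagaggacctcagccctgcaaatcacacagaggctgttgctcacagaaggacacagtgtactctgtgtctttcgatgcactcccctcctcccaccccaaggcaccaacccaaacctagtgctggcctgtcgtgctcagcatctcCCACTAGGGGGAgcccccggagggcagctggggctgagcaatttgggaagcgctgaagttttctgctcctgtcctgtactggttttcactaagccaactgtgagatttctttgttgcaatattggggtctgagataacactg
1700007F19Rik, chr3:58163758-58164057, minus strand: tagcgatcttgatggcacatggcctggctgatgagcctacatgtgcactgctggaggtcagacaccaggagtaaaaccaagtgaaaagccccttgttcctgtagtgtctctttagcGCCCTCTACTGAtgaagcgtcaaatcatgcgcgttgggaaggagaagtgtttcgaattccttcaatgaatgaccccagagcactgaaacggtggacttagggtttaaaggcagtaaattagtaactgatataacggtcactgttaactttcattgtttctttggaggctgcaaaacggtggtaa
Lncpint, chr6:31218425-31218724, minus strand: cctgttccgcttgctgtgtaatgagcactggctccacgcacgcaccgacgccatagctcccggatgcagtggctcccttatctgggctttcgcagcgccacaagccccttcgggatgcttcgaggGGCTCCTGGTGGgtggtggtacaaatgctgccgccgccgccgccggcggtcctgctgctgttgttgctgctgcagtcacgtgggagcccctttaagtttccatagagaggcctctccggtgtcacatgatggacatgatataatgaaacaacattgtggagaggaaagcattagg
Firre, chrX:50635272-50635571, minus strand: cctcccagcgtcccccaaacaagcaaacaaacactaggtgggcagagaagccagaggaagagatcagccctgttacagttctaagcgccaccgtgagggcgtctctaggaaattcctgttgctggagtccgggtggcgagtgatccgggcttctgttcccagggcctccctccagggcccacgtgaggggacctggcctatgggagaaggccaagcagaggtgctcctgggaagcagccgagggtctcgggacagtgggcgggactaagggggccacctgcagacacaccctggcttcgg

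The sites over these 7 windows differed widely in fed score and in starved calls. Because the score scales of the lists differ, each peak's score is given as its percentile within its own list, where 100 is the best peak. The site over the Gm26901 window, which lay between Pcmtd1 and Sntg1, stood at percentiles 95.8, 94.1 and 95.7 in fed 1, 2 and 3 and at 89.1, 63.8 and 80.3 in starved 1, 2 and 3. Mir100hg is the host gene of a microRNA cluster, and its site stood at 98.1, 90.04 and 95.4 in the fed lists and at 83.6, 87.4 and 77.9 in the starved lists. The 1700007F19Rik site stood at 87.6, 86.3 and 92.1 and at 74.9, 89.4 and 78.8. These 3 sites were called in all 6 libraries.

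An exact core match went with high and low scores alike. The Gm40634 site was low, at 32.9, 13.5 and 52.1 in the fed lists, and was called in starved 1 alone, at 0.667. The Gm46796 site, of which the printed window covers a part, stood at 54.4, 49.9 and 70.9 and at 24.2, 6.97 and 26.4. Lncpint is a long noncoding RNA gene induced by p53. Its site had 14.3, 9.48 and 8.24 in the fed lists and no starved peak. The site at Firre, an X-linked noncoding RNA gene with an architectural role in the nucleus, had 59.2, 60.4 and 71.4 in the fed lists and 32.3 and 22.7 in starved 1 and 3, with no peak in starved 2. Of the 46 sites that touched a promoter window, 28 (60.9%) had a peak in all 3 starved libraries, 11 (23.9%) in none and 7 in 1 or 2. Over all 2619 far intergenic sites 42.3% had a peak in all 3 and 36.9% in none, and over all 44909 fed sites it was 49.3% and 29.1%.

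The peak lists themselves differed in length, which bears on each comparison that follows. Fed 1, 2 and 3 held 56103, 49030 and 74950 peaks, and starved 1, 2 and 3 held 30752, 23926 and 29866. Each starved list was shorter than each fed list. Read depth is not stated in the labels or the lists, and its part in the results was not tested. A missing peak means that a site was not called in that list, not that CTCF was absent.

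Far intergenic peaks took a smaller share of the starved lists than of the fed lists. All peaks of each list were used, also those outside fed sites. Far intergenic peaks numbered 3236, 2759 and 4187 in fed 1, 2 and 3, which is 5.77%, 5.63% and 5.59% of the lists (mean 5.66 ± 0.095%, SD, n = 3). In starved 1, 2 and 3 they numbered 1449, 1221 and 1514, or 4.71%, 5.10% and 5.07% (mean 4.96 ± 0.217%, SD, n = 3). The groups did not overlap, and starved minus fed was -0.699 percentage points. Exact permutation of the labels (two-sided, 20 labellings) gave p = 0.1, the smallest that 3 libraries against 3 allow, and 0.125 after Benjamini-Hochberg adjustment over the 5 tests made. With each list cut to its 23926 best-scored peaks, the length of the shortest, the difference was -0.390 points.

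**Figure D1:**
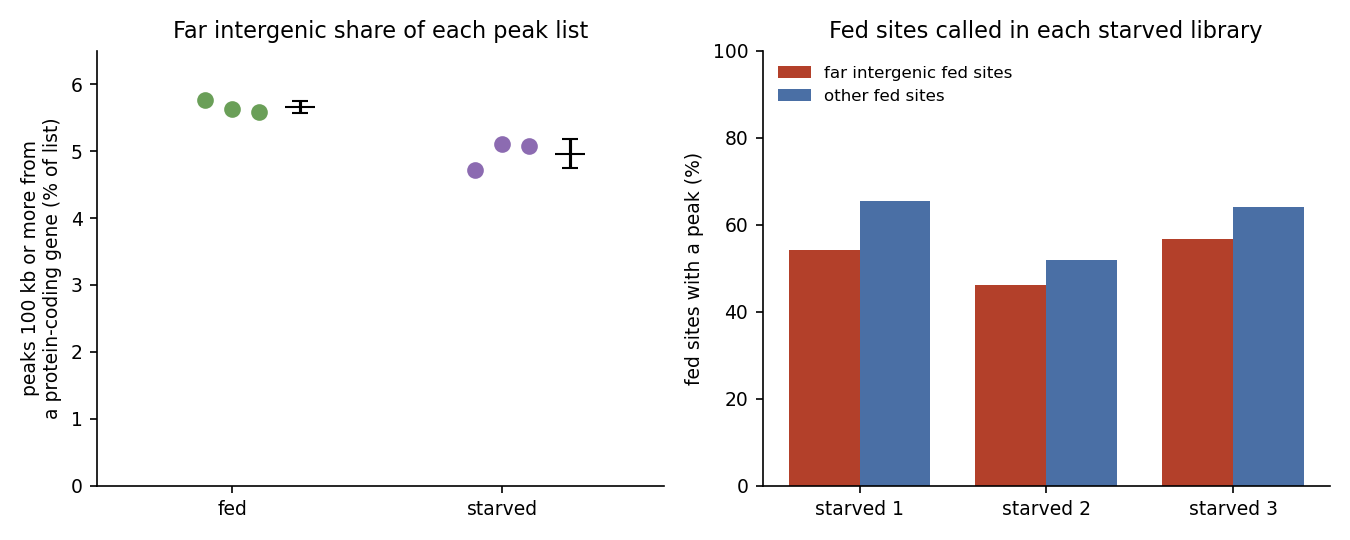
Left, far intergenic peaks as a percentage of each peak list, 1 point per library, with the mean and SD of the 3 fed and 3 starved libraries beside them; the fed points lie between 5.59% and 5.77% and the starved points between 4.71% and 5.10%. Right, bars give the percentage of far intergenic fed sites (red) and of other fed sites (blue) with a peak in each starved library; the red bar is the lower one in each library, with the smallest gap in starved 2.

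Fed sites far from genes were called less often in each starved library than the other fed sites. Of the 2619 far intergenic sites, 1422 (54.3%) had a peak in starved 1, 1210 (46.2%) in starved 2 and 1488 (56.8%) in starved 3, where 64.9%, 51.6% and 63.6% of all fed sites had one. For the other fed sites the shares were 65.5%, 52.0% and 64.04%. The difference was thus -11.2, -5.76 and -7.22 percentage points, with a mean of -8.07 ± 2.84 (SD, n = 3), and had the same sign in 3 of 3 libraries. An exact sign-flip permutation test, two-sided, gave p = 0.25, the smallest that 3 libraries allow, and 0.25 after adjustment. With lists of equal length (each cut to its 23926 best-scored peaks) the differences were -7.29, -1.33 and -2.82 points, with a mean of -3.81.

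Counted over the 3 starved libraries together, 967 far intergenic sites (36.9%, exact Clopper-Pearson 95% interval 35.1 to 38.8) had no starved peak, where 29.1% of all fed sites had none. A peak in 1 starved library was found at 291 sites (11.1%), in 2 at 254 (9.70%) and in all 3 at 1107 (42.3%, interval 40.4 to 44.2), where 49.3% of all fed sites had all 3. The other fed sites had 12105 (28.6%) with none and 21024 (49.7%) with all 3. These intervals hold counting error alone, since sites do not stand for replicates. The gap was wider against the intergenic sites nearer to genes, of which 24.8% had no starved peak and 56.7% had all 3, than against the sites inside genes, of which 31.4% had none and 44.7% all 3. Per starved library, far minus nearer intergenic sites came to -15.6, -12.8 and -12.5 points, and far sites minus sites inside genes to -8.16, -0.76 and -3.46, a comparison chosen after seeing the data in which starved 2 showed little difference.

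Among intergenic fed sites, the share without a starved peak was larger at greater distance from genes. It was 23.3% for the 2528 sites within 1 kb of a protein-coding gene, 24.1% for the 6451 from 1 to 10 kb, 24.9% for the 6559 from 10 to 50 kb and 28.2% for the 2057 from 50 to 100 kb. Beyond the limit it was 34.6% for 1389 sites at 100 to 200 kb, 37.1% for 943 at 200 to 500 kb and 47.4% for 287 at 500 kb or more. The farthest 58, at 1 Mb or more, had 53.4% without and 31.0% with a peak in all 3. The sites inside genes, with 31.4%, stood between the bands on either side of the 100 kb limit. The mean fed score moved along with distance: the median site stood at fed percentile 65.3, 69.5, 67.4 and 63.1 in the bands up to 100 kb and at 59.3, 57.2 and 54.0 in the bands beyond it.

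**Figure D2:**
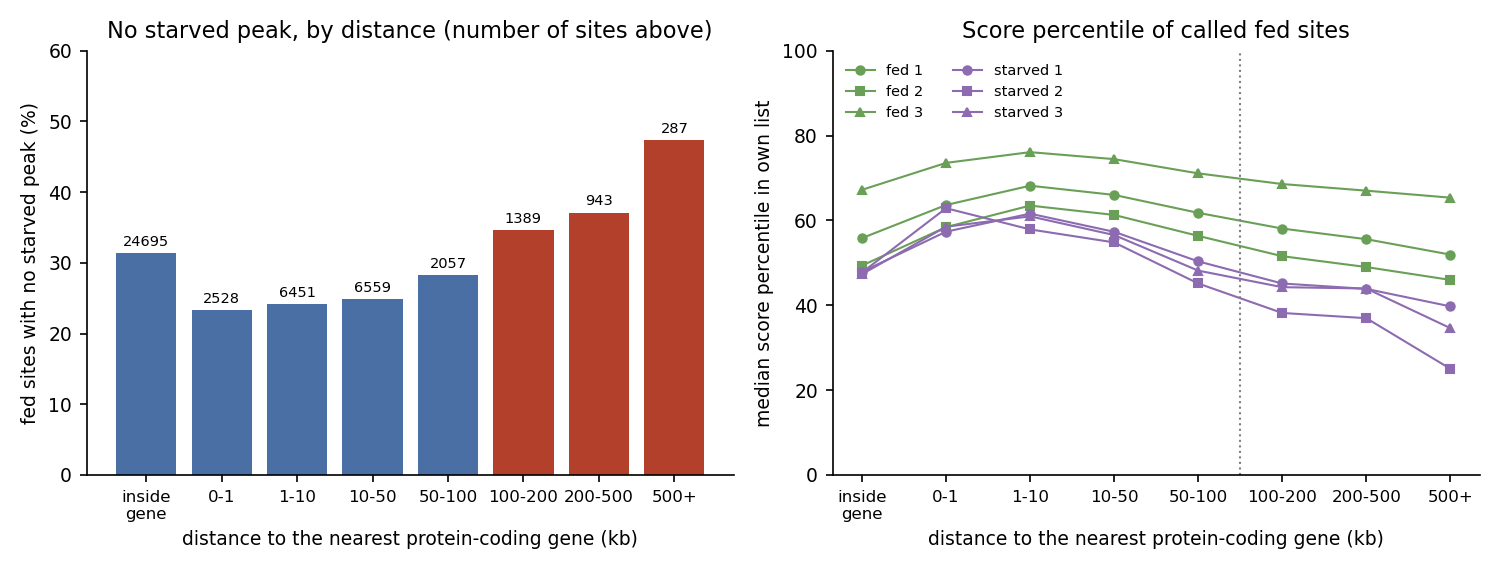
Left, bars give the percentage of fed sites with no starved peak by distance to the nearest protein-coding gene in kb, with the number of sites above each bar and far intergenic bands in red; the intergenic bars go from 23.3% at 0 to 1 kb to 47.4% at 500 kb or more. Right, each line gives the median score percentile of called fed sites in 1 library by the same bands, with the 100 kb limit dotted; each of the 6 lines goes down from the 1 to 10 kb band outward.

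Far intergenic sites stood lower in each of the 6 lists than the other fed sites as a whole, but not lower in the fed lists than the sites inside genes. Their median percentile was 56.1, 49.8 and 67.3 in fed 1, 2 and 3 and 44.0, 36.8 and 43.4 in starved 1, 2 and 3, where they had a peak. The other fed sites had medians of 59.9, 54.1 and 70.2 and of 52.5, 51.5 and 52.0. The difference was -3.89, -4.26, -2.88, -8.51, -14.7 and -8.55 points in that order, with a mean of -7.13 ± 4.42 (SD, n = 6), and was below 0 in 6 of 6 libraries. The two-sided exact sign-flip permutation test gave p = 0.0312, the smallest that 6 libraries allow, and 0.0781 after adjustment. No lower adjusted value was possible over these 5 tests, so the threshold of 0.05 could not be reached. With lists of equal length the mean was -13.3. Against the 24695 sites inside genes, a comparison chosen after seeing the data, the differences were 0.229, 0.429 and 0.0934 points in fed 1, 2 and 3 and -3.89, -10.9 and -3.91 in starved 1, 2 and 3, so the sign turned in the fed lists, and the mean was -2.99 (exact sign-flip permutation p = 0.25, also after adjustment). Against the intergenic sites nearer to genes the mean was -12.6.

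The gap was larger in the starved than in the fed lists as deposited. It was -3.68 ± 0.716 points in fed and -10.6 ± 3.55 in starved libraries (SD, n = 3 each), and the groups did not overlap. The difference of -6.90 points gave p = 0.1 in the exact permutation test over libraries, and 0.125 after adjustment. By the rule, the fed medians cover all 2619 far intergenic sites. The starved medians cover only the 1422, 1210 and 1488 called in starved 1, 2 and 3, and the other fed sites are cut in the same way. The test therefore cannot tell a difference between the states from this choice of sites. With lists of equal length, which also left fewer and better-scored sites (1113 far intergenic), this difference was -0.582 points.

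Peaks at far intergenic sites were also narrower. Their median width was 375, 322 and 442 bp in fed 1, 2 and 3 and 302, 216 and 251 bp in starved 1, 2 and 3. Other fed sites had 487, 406 and 588 bp and 364, 250 and 296 bp. The mean difference was -80.5 ± 42.6 bp (SD, n = 6), with the same sign in 6 of 6 libraries, and the exact sign-flip permutation test gave p = 0.0312 and 0.0781 after adjustment. Among sites of like fed score, compared in bands of 10 percentile points, the mean difference was -39.0 bp. Width and score thus moved together, and their parts were not told apart further.

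**Figure D3:**
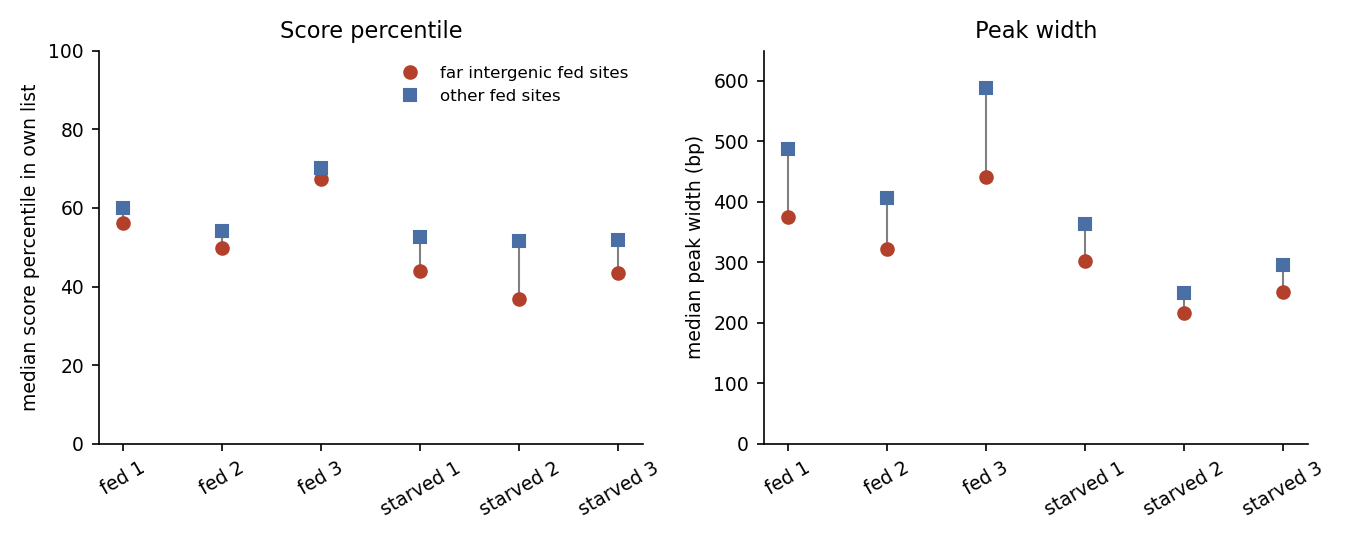
Median score percentile (left) and median peak width in bp (right) of far intergenic fed sites (red circles) and other fed sites (blue squares) called in each of the 6 libraries, joined by a line per library. The red circle is below the blue square in each library, with differences of -2.88 to -14.7 points on the left and -34 to -146 bp on the right.

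Score in the fed lists separated the far intergenic sites that had a starved peak from those that had none. The median fed percentile was 37.1 for the 967 with no starved peak and 76.5 for the 1107 with a peak in all 3 starved libraries. Of the 807 far intergenic sites above a fed percentile of 70, 0 were without a starved peak and 795 had all 3. The same held over all fed sites, where the medians were 33.4 and 81.1. Of the 17418 fed sites above 70, 0 were without a starved peak and 17266 had all 3. The best far intergenic site with no starved peak stood at 65.4, and the best such site among the others at 69.9. The limit of 70 lies above both by choice, so neither count of 0 is a test.

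At a like fed score, far intergenic sites still lacked a starved peak more often. In the band from 30 to 40, 89.1% of 341 far intergenic sites had none, against 75.4% of 4849 others. From 40 to 50 it was 67.3% of 395 against 52.1% of 5011, and from 50 to 60 it was 30.9% of 376 against 17.1% of 5090. In the band from 60 to 70 few sites of either kind had none, 2.0% against 1.3%.

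The difference within bands was seen in starved 1 and 3. In the band from 50 to 60, starved 1 called 44.7% of far intergenic sites and 64.6% of others, and starved 3 called 53.5% and 66.2%. Starved 2, the shortest list, called 25.5% and 26.6%. Weighted over the bands, the difference was -8.43 points in starved 1, -0.36 in starved 2 and -4.37 in starved 3, with a mean of -4.39, against -8.07 with no bands. In bands of 2 points, chosen after seeing the data, the mean was -4.47.

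**Figure D4:**
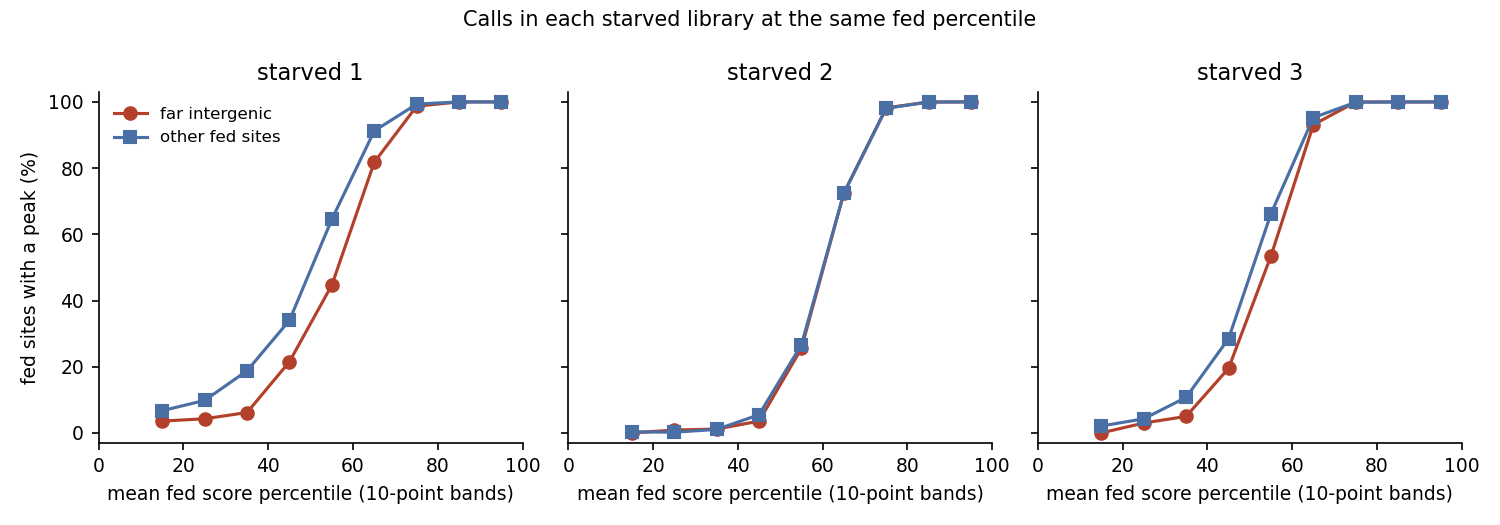
Each panel is 1 starved library; the points give the percentage of fed sites with a peak there (vertical axis) in bands of 10 points of mean fed score percentile (horizontal axis), red for far intergenic and blue for other fed sites. In the 50 to 60 band red stands at 44.7% and blue at 64.6% in starved 1, red at 53.5% and blue at 66.2% in starved 3, and both nearly coincide in starved 2, at 25.5% and 26.6%.

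With lists of equal length, few fed sites of any kind were without a starved peak. Of 1113 far intergenic sites then called in all 3 fed lists, 24 (2.16%) had no starved peak and 915 (82.2%) had all 3. Over all fed sites of those lists the shares were 1.20% and 88.9%. For the others they were 1.15% and 89.2%. Far intergenic sites again had all 3 starved peaks less often than the others, and the share without a starved peak was a small part of that in the full lists.

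The best-scored far intergenic sites stood near the top of the lists of both states. Among the 10 with the highest fed percentile that were called in all 6 libraries, the mean fed percentile ran from 98.4 to 99.8 and the mean starved percentile from 86.4 to 98.8. The first, chrX:94865289-94866101 between Zxdb and Spin4, stood at 99.6, 99.9 and 99.97 in fed 1, 2 and 3 and at 99.4, 96.4 and 99.9 in starved 1, 2 and 3. A site at chr3:52843703-52844813 lay 494 kb from Foxo1, the insulin-regulated transcription factor of gluconeogenesis, and 138 kb from Cog6, a Golgi tethering subunit, and stood at 99.5, 99.4 and 99.5 and at 93.9, 99.7 and 99.9. At chr10:99615568-99616464, between Dusp6, a phosphatase of ERK kinases, and Csl, the values were 99.3, 99.8 and 99.6 and 98.4, 99.3 and 91.9.

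Several of these sites lay in noncoding genes. The site at chr2:128395856-128396598 lay in Morrbid, a long noncoding RNA (lncRNA) gene known from myeloid cells, 234 kb from Bcl2l11, which encodes the pro-death protein Bim. It stood at 97.1, 99.4 and 98.7 in the fed lists and at 93.9, 97.2 and 93.9 in the starved lists. The site at chr4:137163912-137165168, at an end of Gm13003 and 113 kb from Wnt4, a secreted signal of development, had 98.1, 99.2 and 99.3 and 81.8, 92.3 and 85.2. The site at chr6:50936781-50938143, in Gm31686 and 283 kb from the neuropeptide gene Npvf, had 99.4, 99.2 and 99.9 and 97.5, 96.6 and 99.1. The others lay between Rps24 and Zmiz1, Ccdc54 and Cblb, Sall3 and Galr1, and Tbc1d1 and Gm38457.

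The best-scored sites with no starved peak reached middle scores at most. The 10 highest had mean fed percentiles from 59.2 to 65.4. The first, at chr6:16550471-16550940 in the lncRNA gene Gm36503, lay 280 kb from Tfec, a transcription factor of the MiT family, and had 69.6, 56.7 and 69.9 in fed 1, 2 and 3. At chr14:37950251-37950784, between Ghitm and the growth factor gene Nrg3, the values were 62.3, 59.9 and 70.8. At chr16:76865963-76866439, between Nrip1, a corepressor of nuclear receptors in metabolic tissues, and Usp25, they were 64.5, 50.9 and 73.1. Fed 2, the shortest fed list, gave the lowest value of each of the 3 sites. The others lay beside Dact1, Elavl2, Nbea, Icos, Pdgfc, Tmem132c and Flrt2.

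Distance to the nearest protein-coding gene ran from 100.03 to 1985 kb, with a median of 191 kb and quartiles at 135 and 319 kb. At 500 kb or more lay 287 sites. The farthest, between Celf4 and Pik3c3 on chromosome 18, was 1985 kb from a gene, with fed percentiles of 13.7, 22.9 and 40.0 and no starved peak. The next, chr14:90432954-90433782, lay 1962 kb from Pcdh20, a protocadherin gene. It stood at 74.5, 73.0 and 76.7 in the fed lists and was called in all 3 starved lists, at 33.8, 15.9 and 32.4. It lost its 3 starved calls when peaks below a score of 30.4, the median of all lists, were left out.

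The other 3 of the 5 farthest had no starved peak. They lay at chr1:102876622-102876943 (1892 kb from Cdh20, a cadherin gene), chr2:47053719-47054021 (1760 kb from Acvr2a, an activin receptor gene) and chr2:99236771-99237361 (1605 kb from Lrrc4c, a synaptic adhesion gene). Their fed percentiles were 28.0, 8.34 and 23.6, then 27.5, 4.15 and 37.6, then 53.7, 41.6 and 61.2.

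At the limit itself, the 5 sites just inside lay 100.03 to 100.3 kb from a gene and the 5 just outside 99.8 to 99.96 kb. Just inside, 4 were called in all 3 starved libraries and 1, near Nfia, in none, at mean fed percentiles of 45.1 to 86.6. Just outside, 2 were called in all 3, 2 in 1 and 1 in none, at 28.04 to 96.8. The values on either side of the limit overlapped.

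Sites crowded into some gene deserts and were sparse in others. Between neighbouring protein-coding genes, 1689 stretches were long enough to hold a point 100 kb from both, and 881 of them held at least 1 far intergenic site. The stretch with a site held a median of 2 and at most 22, and 26 stretches held 10 or more. Without chromosome Y, this gene-free core came to 737.8 Mb, 28.4% of the chromosomes' span, and held 3.54 far intergenic sites per Mb, while the rest of the span held 22.7 other fed sites per Mb.

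The stretch with the most sites was the immunoglobulin heavy chain (Igh) region on chromosome 12, between Adam6a and Zfp386, where antibody V segments lie. RefSeq gives V segments a biotype of their own, so they did not count as protein-coding genes. Of its 22 sites, 11 had no starved peak and 7 had all 3. The best, chr12:113981471-113982257 near Ighv11-1, had 92.8, 81.9 and 94.3 in fed 1, 2 and 3 and 64.9, 75.1 and 81.2 in starved 1, 2 and 3. The site near Ighv11-2, chr12:114047831-114048601, had 90.5, 81.0 and 93.6 and 44.2, 36.2 and 81.2. The 7 sites called in all 3 starved libraries lay 170 to 502 kb from Adam6a, at the end of the region nearest to the antibody constant genes. Sites with no starved peak stood among them, at 223, 280 and 350 kb. The 6 sites farthest from Adam6a, 820 kb or more away, had a peak in at most 1 starved library. Mean fed percentiles were 72.7 to 89.7 for the 7 and 24.9 to 60.6 for the 6, so position and fed score were not told apart.

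Antigen receptor loci held 54 far intergenic sites in all, of which 25 had no starved peak and 17 had all 3. Among all far intergenic sites 36.9% had none and 42.3% all 3, and among all fed sites 29.1% and 49.3%, and with these few sites per locus no difference from those shares was tested. The T cell receptor alpha locus (Tra), between Gm36448 and Dad1 on chromosome 14, held 17 sites, 8 with no starved peak and 6 with all 3. The kappa light chain locus (Igk) held 12, 6 with none and 2 with all 3, the beta chain locus of the T cell receptor (Trb) 2, the lambda light chain locus (Igl) 1 and the gamma chain locus (Trg) 0. These loci are rearranged in lymphocytes, which a whole liver also holds.

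Among the other crowded stretches, the one between Rtl1 and Dio3 on chromosome 12 lies in the imprinted domain of these genes. It held 14 sites in a core of 0.475 Mb, 29.5 per Mb, of which 5 had no starved peak and 5 had all 3. Between Gm4868 and Tmem132c on chromosome 5 lay 17 sites, 9 with none and 5 with all 3. Between Adgrl2 and Adgrl4, receptor genes of the latrophilin family and its relatives on chromosome 3, lay 14 sites, 7 with none and 4 with all 3. The densest of the stretches with 10 or more was that between Klf14, a transcription factor gene with metabolic roles, and Mkln1 on chromosome 6, with 13 sites at 54.2 per Mb, 3 of them with no starved peak and 7 with all 3. Over all far intergenic sites 36.9% had none and 42.3% all 3, and over all fed sites 29.1% and 49.3%. Median fed percentiles of these stretches were 43.0, 53.1, 53.4 and 63.8 in that order, beside 57.7 over all far intergenic sites. With so few sites per stretch no difference was tested.

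Over the 26 stretches with 10 or more sites, the share without a starved peak ran from 1 of 10 to 7 of 11. It was 1 of 10 both between Camk1g and Plxna2, a semaphorin receptor gene, on chromosome 1 and between Matn1 and Ptpru on chromosome 4. It was 7 of 11 between Bcl11a, a zinc finger repressor, and Fancl on chromosome 11, and 7 of 12 between Sdk2 and Rpl38 on the same chromosome. The median fed percentile was 84.6 and 64.5 in the first pair and 41.1 and 46.7 in the second, so of these 4 stretches those with fewer starved peaks had the lower fed scores.

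**Figure D5:**
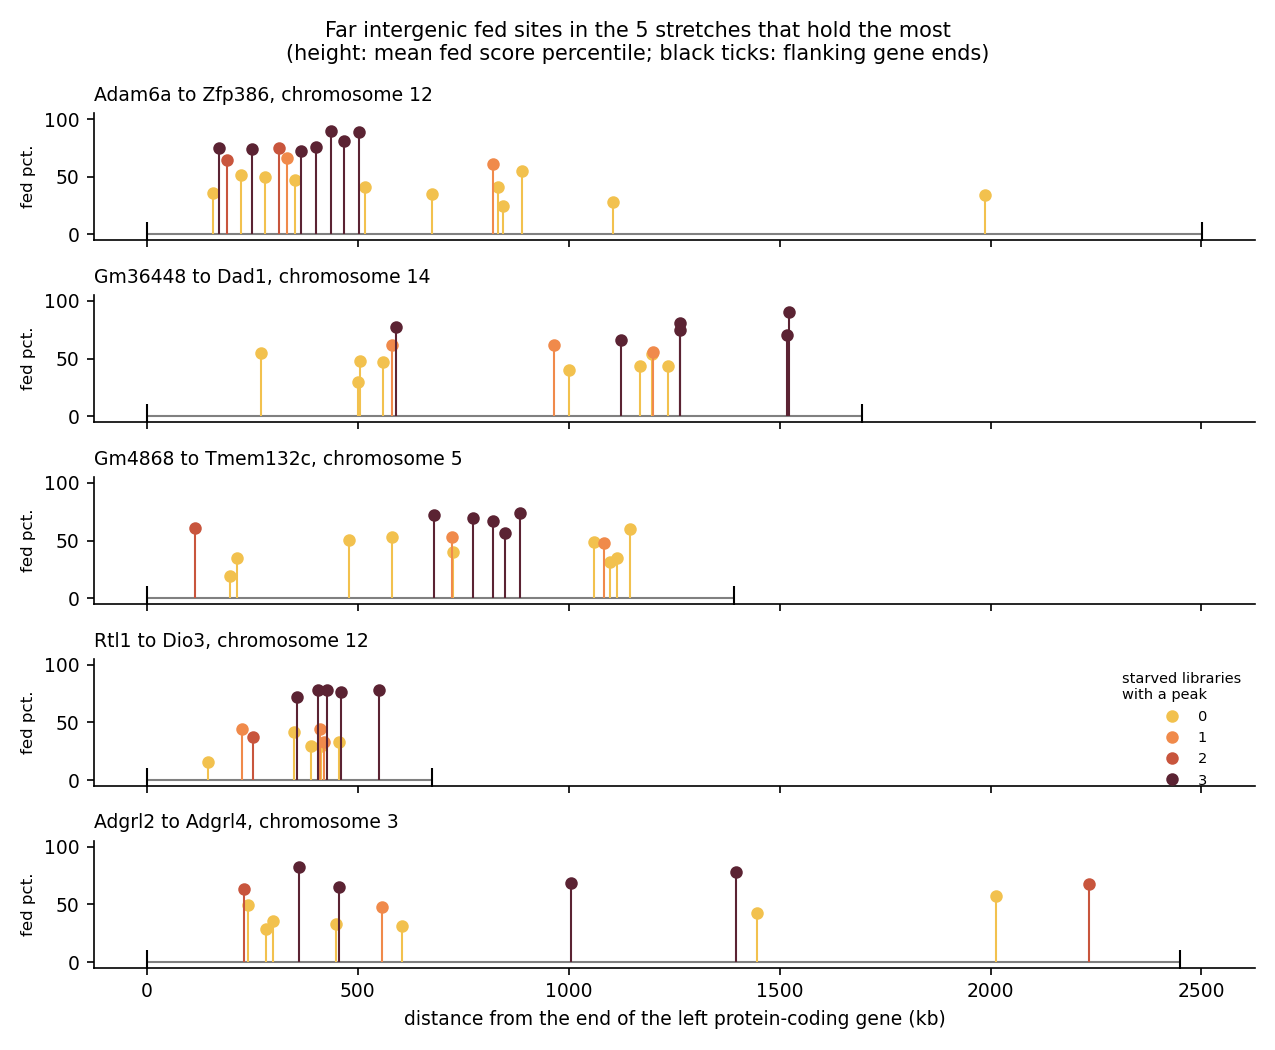
Far intergenic fed sites along the 5 stretches that held the most of them; the horizontal axis is the distance from the left protein-coding gene in kb, the height is the mean fed score percentile, and the colour is the number of starved libraries with a peak. In the Igh stretch (Adam6a to Zfp386) the 7 sites with all 3 starved peaks lie 170 to 502 kb from the left gene. Sites with none stand among them at 223, 280 and 350 kb. In the other 4 stretches, too, sites with all 3 stand among sites with none.

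The longest deserts were not the most crowded. The longest, 4542 kb between the protocadherin genes Pcdh20 and Pcdh9 on chromosome 14, held 12 sites at 2.76 per Mb, 3 with no starved peak and 6 with all 3. Between Olfm4 and Pcdh17 on the same chromosome, 4420 kb held 3 sites, each called in all 3 starved libraries. The stretches between Celf4 and Pik3c3 on chromosome 18, Cntnap5b and Cdh20 on chromosome 1, and Tenm3 and Aga on chromosome 8 spanned 4511, 4278 and 3989 kb and held 6, 6 and 4 sites. In these 5 stretches the density was 0.711 to 2.76 per Mb, below the 3.54 of the whole gene-free core.

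Far intergenic sites also stood apart from other fed sites. The nearest fed site lay a median of 39.2 kb away (quartiles 11.6 and 106 kb), against 8.64 kb (3.36 and 20.5 kb) for other fed sites. Within 100 kb, 680 far intergenic sites (26.0%) had no other fed site, against 2.49% of the others. The rule itself widens this spacing. A far intergenic midpoint lies at least 100 kb from each protein-coding gene, so the 24695 fed sites inside genes cannot be closer to it. How much of the difference remains beyond the rule was not tested. Sites with no starved peak had their neighbour at a median of 44.6 kb and sites with all 3 starved peaks at 34.0 kb.

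Many far intergenic sites lay in or beside lncRNA genes. Inside an lncRNA gene lay 498 of the 2619 (19.0%), where such genes covered 9.84% of the same gene-free length. Counting any noncoding gene it was 578 sites (22.1%) against 11.7% of the length, and within 5 kb of one 814 sites (31.1%) against 17.4%. The 125 sites within 1 kb of an lncRNA gene end had no starved peak in 32.8% and all 3 in 51.2% of cases, beside 36.9% and 42.3% of all far intergenic sites and 29.1% and 49.3% of all fed sites. The 190 sites within 1 kb of an end of any noncoding gene had 39.5% and 44.2%. The median fed percentile was 61.7 at lncRNA gene ends, 59.4 at ends of any noncoding gene and 57.7 over all far intergenic sites. No test of these shares was made, since sites are not replicates.

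Like all 133 far intergenic sites at a fed percentile of 90 or more, the best-scored at noncoding gene ends were called in all 6 libraries. Of the 10 highest, with mean fed percentiles from 93.03 to 98.9, the site at chr15:61157300-61158377 lay at an end of Gm38563, in the desert between A1bg and Myc, the growth-promoting transcription factor gene, 828 kb from Myc. It stood at 95.6, 98.8 and 97.8 in fed 1, 2 and 3 and at 99.4, 99.7 and 99.8 in starved 1, 2 and 3. The site at chr13:47667116-47667776, at an end of 4930471G24Rik and between Rnf144b and Id4, an inhibitor of helix-loop-helix factors, had 93.8, 95.7 and 92.7 and 74.6, 86.8 and 89.5. The site at chr1:194222594-194223543, at an end of 4930503O07Rik in the desert before Plxna2, had 98.4, 86.8 and 94.3 and 69.3, 56.9 and 95.7, and kept 2 of its 3 starved calls at the score limit.

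The gene nearest to each far intergenic site was counted by gene lists. Of 21900 protein-coding genes, 1160 (5.30%) were nearest to at least 1 far intergenic site. In a list of 50 developmental regulators it was 34 (68.0%), but these had been picked for lying beside deserts, so the choice of the list set this count and nothing is read from it. Their 86 sites had no starved peak in 43 cases and all 3 in 25 (29.1%), against 36.9% and 42.3% of all far intergenic sites. Of 41 neuronal adhesion genes 20 were nearest to a site (48.8%), and 21 of their 56 sites (37.5%) had no starved peak and 23 all 3. This list holds Pcdh20, Pcdh9, Pcdh17 and Cdh20, which flank some of the longest deserts, so nothing is read from its count of genes either.

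In the list of developmental regulators, Bmp2 and Myc were nearest to 6 sites each and Gata3 to 5. Bmp2 encodes a bone morphogenetic protein, and 3 of its sites were called in all 3 starved libraries and 2 in none. The best, chr2:133724212-133724873, stood at 71.6, 68.6 and 75.7 in the fed lists and at 28.4, 26.2 and 41.4 in the starved lists. Of the 6 sites of Myc, 3 had no starved peak and 2 had all 3. The better of these, chr15:62802743-62803221, had 64.8, 62.9 and 81.2 and 43.2, 57.4 and 51.4. Gata3, a zinc finger factor of T cells, had 3 sites with all 3 starved peaks and 2 with none, all of them 979 kb or more away, and chr2:8676193-8677128 had 79.3, 75.7 and 80.8 and 42.1, 17.7 and 54.3.

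Among the neuronal adhesion genes, Pcdh20 was nearest to 12 sites, of which 5 had all 3 starved peaks, 4 had 1 or 2 and 3 had none. Its site at chr14:89920465-89921184 stood at 79.0, 60.3 and 81.2 in the fed lists and at 72.6, 51.4 and 62.4 in the starved lists. Cdh20 was nearest to 5 sites, 3 with all 3 and 2 with none, and Cdh11 to 4, 1 with all 3 and 3 with none. The site of Cdh11 with starved peaks, chr8:103441034-103441881, had 75.8, 60.1 and 75.6 and 57.6, 51.05 and 53.6.

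Of 44 genes of liver identity and fasting metabolism, 8 (18.2%) were nearest to a far intergenic site, where 5.30% of all protein-coding genes were. Their 33 sites had no starved peak in 12 cases (36.4%) and all 3 in 15 (45.5%), close to the 36.9% and 42.3% of all far intergenic sites. The 8 were Foxa2 with 9 sites, Nr5a2 with 7, Apob with 6, Onecut1 with 4, Irs2 with 3, Ppargc1a with 2 and Foxo1 and Insig2 with 1 each. The count of 33 sites thus rested mostly on 3 genes, Foxa2, Nr5a2 and Apob.

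Foxa2, a pioneer transcription factor of hepatocytes, had 6 sites with all 3 starved peaks and 3 with none. The site at chr2:147738125-147738912 stood high in both states, with 92.4, 88.7 and 94.3 in fed 1, 2 and 3 and 88.5, 89.7 and 93.7 in starved 1, 2 and 3. The site at chr2:147895374-147896310, at an end of the lncRNA gene Gm46769, had 96.9, 96.9 and 97.1 and 87.5, 94.4 and 76.7. The 3 with no starved peak had mean fed percentiles of 28.03, 26.8 and 7.93, below the 6 others, which lay between 70.1 and 97.0.

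Nr5a2, the nuclear receptor LRH-1 of bile acid synthesis, had a starved peak at each of its 7 sites, 4 of them in all 3 libraries. The best, chr1:136739551-136740111, stood at 93.4, 79.9 and 90.0 in the fed lists and at 68.8, 53.2 and 63.0 in the starved lists. Apob, the structural protein of very low density lipoprotein, had 6 sites, 4 with no starved peak. Its 1 site with all 3, chr12:7777483-7778478, had 78.7, 71.7 and 79.3 and 5.998, 51.4 and 47.03. Sites of Apob with no starved peak had mean fed percentiles of 14.5 to 36.8.

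Markers of other liver cells were the nearest gene about as often as any protein-coding gene. Of 21 markers of macrophages, endothelium, stellate cells, bile ducts and lymphocytes, 1 (4.76%, beside 5.30% of all protein-coding genes) was nearest to a far intergenic site, Cdh5, the cadherin of endothelial junctions. Its 4 sites had all 3 starved peaks in 1 case, 1 or 2 in 2 cases and none in 1. The site with all 3, chr8:103948330-103949019, stood at 80.7, 74.4 and 81.9 in the fed lists and at 67.9, 69.4 and 55.5 in the starved lists. Being the nearest gene does not show that a site acts on it.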

How the data were processed

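The authors deposited 1 peak list per ChIP library, with a chromosome, start, end, name and score for each peak; the deposited score has no stated unit and its lowest value was 2.00. The submitters' processing notes name the build mm10 and, without saying what each did, the tools MACS2, HOMER, BWA 0.7.5a, bedtools 2.17, FastQC and SAMtools. Groups and replicate numbers came from the sample titles. Peaks of the 6 lists were merged at 1 bp or more of overlap, and a site with several peaks of a list took the best percentile and the widest peak. Gene positions and promoter windows came from RefSeq (GRCm38.p6; 49980 genes with a position, 21900 protein-coding). Coordinates count from 1. No genome sequence was used, so motifs in the sites themselves are not analysed here.

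The 5 tests were exact permutation or sign-flip tests over libraries, two-sided, with Benjamini-Hochberg adjustment and a threshold of 0.05. The sites and gene lists were chosen with earlier results of these data known. Named were the 10 highest-scored sites called in all 6 libraries, with no starved peak, and at noncoding gene ends; the 5 farthest; the 5 on either side of the limit; the 5 fullest and 5 longest stretches; and the 3 genes per list nearest to most sites. Sites singled out within a stretch or beside a gene, the stretches between Klf14 and Mkln1 and at the ends of the range, and the printed windows were chosen after their values were seen. Alternatives were other distance limits, any gene biotype, a score limit, equal list length, autosomes, merging within 500 bp, trimming peaks to 200 bp, at least 2 of 3 fed libraries, bands of fed score, leaving out each library and a replicate block; counting antigen receptor segments as genes, other comparison sites and finer bands were added after seeing the data. The scripts were tested on simulated peaks with known answers. The work was done in Python 3.11.15 (scipy 1.17.1, numpy 2.4.6, pandas 2.3.3, matplotlib 3.10.9).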

Additional observations from a re-analysis of the deposited data

How the results depend on the processing

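The means of the 5 tested differences kept their sign in each alternative run. Their adjusted p-values stayed above the threshold of 0.05 in each run, but the number of libraries fixed this in advance. The far share of peaks, starved minus fed, ranged from -1.90 (score limit) to -0.162 points (any gene biotype), the starved calls of far minus other sites from -18.8 to -3.81 points, the score percentile from -14.0 to -2.99 points, the width from -114 to -39.0 bp and the starved minus fed percentile gap from -11.5 to -0.582 points. Without each library in turn they ranged from -0.770 to -0.574, -9.23 to -6.49, -7.81 to -5.62, -89.8 to -66.8 and -7.94 to -4.85. The share of far intergenic sites with no starved peak, 36.9%, became 33.1% at 50 kb, 39.5% at 200 kb, 47.4% at 500 kb, 41.5% with any gene biotype, 49.3% at the score limit, 48.1% with 2 of 3 fed libraries, 37.2% to 46.5% without each library in turn, and 2.16% with lists of equal length. The other fed sites had 28.6%, 28.8%, 29.0%, 29.0%, 34.8%, 41.2% and, with equal length, 1.15%. Correlations of deviations were -0.010, 0.094 and 0.063 for same-numbered fed and starved libraries and ran from -0.128 to 0.091 for differently numbered ones. Whether same-numbered libraries were paired cannot be told from these values. With a replicate block the differences of -0.699 and -6.90 points were unchanged by construction, with p = 0.25 in the exact sign-flip test, the smallest 3 pairs allow. Peak lists give no read depth, so a site not called in a list may have been below its detection limit.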

Other observations

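Chromosomes differed in how much of their CTCF map lay far from genes. Far intergenic sites were 9.67% of the fed sites on chromosome 12 and 9.18% on chromosome 3, and 3.01% on chromosome 19. On chromosome X they were 84 of 1058 fed sites (7.94%) but stood at 1.45 per Mb of gene-free core, while chromosome 9 held 5.36 per Mb. Chromosome 16 had the smallest share without a starved peak, 29.0%, and chromosome 7 the largest, 49.0%. The share was 38 of 84 (45.2%, exact 95% interval 34.3 to 56.5) on chromosome X. On chromosome 16 the other fed sites had 29.3% with none, slightly more than the far intergenic sites there, whereas on each other chromosome with far intergenic sites the far intergenic share was the higher. Chromosome Y had 19 fed sites, of which 0 were far intergenic. These shares were not tested.

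Noncoding genes other than lncRNA genes held small numbers of far intergenic sites, which differed in how they compared with the length such genes cover. Pseudogenes held 21 (0.802% of the sites, on 0.969% of the gene-free length). Antigen receptor segments held 7 (0.267%, on 0.0398% of the length), and small nuclear and nucleolar RNA genes also held 7 (0.267%, on 0.00995%), in both cases a larger share than that of the length, with no test made on so few. MicroRNA genes held 0, although 7 sites lay within 5 kb of a microRNA gene. Of the 7 sites in small nuclear or nucleolar RNA genes, 6 had no starved peak, where 36.9% of all far intergenic and 29.1% of all fed sites had none. Their median fed percentile was 36.3, and from 30 to 40 89.1% of far intergenic sites had no starved peak.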
